A study of Mus musculus with 3 samples.

Results

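The genes described here are 8 genes listed for the identity of the thermogenic brown adipocyte: Ucp1, Ppargc1a, Ppargc1b, Prdm16, Cidea, Esrrg, Esrra and Zfp516. They were taken by name from the 25154 genes with a column in at least 1 of the deposited tables of nuclei from mouse brown adipose tissue (BAT), and all 8 had a column in all 3 tables. All are protein-coding in GENCODE vM21 on GRCm38. Esrrg lies on chromosome 1 from 187608791 to 188214885, Prdm16 on chromosome 4 from 154316125 to 154636873, Ppargc1a on chromosome 5 from 51454250 to 51567726, Ucp1 on chromosome 8 from 83290352 to 83298452 and Esrra on chromosome 19 from 6910977 to 6921813. Ppargc1b, Cidea and Zfp516 lie on chromosome 18. A count here is the number of unique molecular identifiers (UMIs) of a gene anywhere along its transcript, so that no value is tied to an exon or an intron.

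The tissue came from adult mice labelled as wild type and of the strain C57Bl6, 8 weeks old per the methods, in 3 conditions with 1 library each: untreated, sham operation and denervation. Denervation cut the intercostal nerve branches that reach 1 side of the interscapular BAT, and this tissue was taken 3 days later. The methods give pooled mice for the untreated and the denervated library and list tamoxifen for the mice of the denervated one. The labels give all 3 libraries as wild type, but the sample name in the header of the denervated table contains nKO and that of the untreated table nC, terms that the sources used here do not explain. The labels were followed, and the genotype was not checked from the data. The labels do not say whether the sham tissue was the other lobe of the operated mice. All nuclei were isolated from the floating layer of digested BAT, which holds lipid-laden brown adipocytes (BAs) together with fragments of vessels, and were sorted before capture on the BD Rhapsody system.

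Since each condition was measured in a single library, the spread between animals is unknown and nothing was tested, and every interval is a 95% interval for counting error only. The libraries held 9420030 to 14971579 UMIs. The denervated library was the shallowest, with a median of 428 UMIs per barcode against 859 and 781 in the untreated and sham libraries. Nuclei were named after marker genes, among which no member was used. Between 251 and 278 barcodes occurred in both libraries of a pair, and of those kept in both, 28.7% to 40.9% had the same class. The adipocyte list (8 of 8 markers found) summed to between 5978 and 7565 counts per 1000000 UMIs (CPM) in BA-like nuclei and to 893 CPM in the sham, 1001 CPM in the untreated and 1962 CPM in the denervated endothelial cell (EC)-like nuclei. The EC list summed to between 256 and 361 CPM in BA-like nuclei. The skeletal muscle list stayed between 20.8 and 41.3 CPM in BA-like nuclei.

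A BA burns fatty acids and dissipates the proton gradient of its mitochondria as heat through UCP1, the uncoupling protein encoded by Ucp1. Noradrenaline from sympathetic nerves drives this through β-adrenergic receptors, cAMP and kinases that act on transcription factors at Ucp1 and Ppargc1a. PGC-1α and PGC-1β, encoded by Ppargc1a and Ppargc1b, are coactivators of mitochondrial biogenesis and oxidative metabolism. They work with nuclear receptors, among them the estrogen-related receptors ERRα and ERRγ, encoded by Esrra and Esrrg. PRDM16 and ZFP516 are transcriptional regulators of the brown and beige fate, and CIDEA is a lipid droplet protein of BAs.

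The promoters of Ucp1 and Ppargc1a are shown because both genes are targets of the cAMP pathway that denervation interrupts. Their levels also differed in opposite directions between groups of BA nuclei within 2 of the 3 libraries, over nuclei not matched on depth. The windows run from 250 bases before to 50 bases after the RefSeq start on GRCm38.p6, in the direction of the gene. Capitals mark TGACG, the core of a cAMP response element, or AGGTCA, a half-site of nuclear receptors, each searched on both strands. The Ucp1 window is chr8:83290098-83290397 on the plus strand and the Ppargc1a window is chr5:51567676-51567975 on the minus strand.
Ucp1: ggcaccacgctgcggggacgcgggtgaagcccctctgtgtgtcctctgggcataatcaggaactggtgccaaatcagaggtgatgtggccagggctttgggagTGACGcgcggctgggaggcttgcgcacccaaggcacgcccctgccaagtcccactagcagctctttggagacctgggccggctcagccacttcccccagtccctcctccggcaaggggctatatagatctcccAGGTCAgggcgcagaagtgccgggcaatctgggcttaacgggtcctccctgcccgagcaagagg
Ppargc1a: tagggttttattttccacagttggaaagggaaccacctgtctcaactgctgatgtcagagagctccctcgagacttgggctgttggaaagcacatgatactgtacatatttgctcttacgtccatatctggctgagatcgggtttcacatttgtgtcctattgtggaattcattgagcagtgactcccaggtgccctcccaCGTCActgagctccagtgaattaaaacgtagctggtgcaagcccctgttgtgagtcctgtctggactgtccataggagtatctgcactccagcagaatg

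In the Ucp1 window TGACG began at base 104 and AGGTCA at base 237, and in the Ppargc1a window CGTCA, the reverse complement of TGACG, began at base 202. TGACG was in 20.8% and AGGTCA in 16.3% of all 32851 windows of this length, so that neither is rare. The windows found for Prdm16, Esrra and Esrrg, of which Esrrg had 4, held neither run of letters. A match describes the letters only.

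Of the members, 7 were more abundant in BA-like nuclei than in EC-like nuclei taken as a class, and Zfp516 was not. BA-like nuclei numbered 4475 (untreated), 3244 (sham) and 4937 (denervated), with a median of 1826, 1408.5 and 893 UMIs, and 5429, 5910 and 2744 EC-like nuclei, with a median of 670, 526.5 and 401.5 UMIs. Ucp1 had 348 CPM (336 to 361) in untreated, 415 CPM (397 to 434) in sham and 308 CPM (292 to 323) in denervated BA-like nuclei. In EC-like nuclei it had 92.8, 77.2 and 164 CPM in the same order. In none of the libraries did the intervals of the 2 classes overlap, and the log2 ratio was 1.91 (1.75 to 2.07), 2.43 (2.25 to 2.61) and 0.91 (0.71 to 1.11).

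Ppargc1a, Ppargc1b and Esrrg showed the widest gaps between BA-like and EC-like nuclei among the members in the untreated and sham libraries. Ppargc1a had 286 and 192 CPM in BA-like nuclei of these libraries and 19.0 and 10.4 CPM in EC-like nuclei, for log2 ratios of 3.91 (3.57 to 4.27) and 4.21 (3.74 to 4.71). Ppargc1b stood at log2 ratios of 4.10 (3.92 to 4.28) and 4.65 (4.48 to 4.84), and Esrrg at 4.26 (4.03 to 4.51) and 4.63 (4.34 to 4.94). Esrra followed with 3.12 (2.88 to 3.37) in the untreated and 3.42 (3.09 to 3.77) in the sham library, and Cidea with 2.90 (2.79 to 3.01) and 3.67 (3.53 to 3.81). The ratio of Prdm16 was the smallest of the members that were higher in BA-like nuclei, at 1.34 (1.21 to 1.48) in the untreated and 1.91 (1.73 to 2.08) in the sham library.

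The counts past 2-fold are given as a description, since the members were chosen as genes of BA identity and Ppargc1a, Esrrg and Esrra reached the 50 CPM below only through BA-like nuclei in the untreated and sham libraries. A gene was counted where it had at least 50 CPM in either class, a level that 7 members reached and Zfp516 did not, and was at least 2-fold higher in BA-like nuclei. All 7 members above that level were so in the untreated library, against 26.5% of all genes, and all 7 in the sham library, against 28.3%. In the denervated library 6 of 7 were, against 17.7% of all genes, and Ucp1 fell short of 2-fold. The median over the 8 members was 3.01 (untreated), 3.55 (sham) and 1.46 (denervated) on the log2 scale, beside 0.16, 0.17 and 0.09 over all genes.

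The EC-like class of the denervated library was uneven in most members. One of its 2 clusters, of 1430 nuclei led by Ablim3 with a median of 333 UMIs, held 946 CPM of Cidea and 534 CPM of Esrrg. The other, of 1314 nuclei led by Aqp1 with a median of 467 UMIs, held 351 and 39.7 CPM. Without the first cluster the log2 ratios of BA-like over EC-like nuclei were 4.52 (3.59 to 5.65) for Ppargc1a, 4.66 (4.13 to 5.26) for Esrrg and 1.97 (1.66 to 2.31) for Prdm16. Ucp1 then stood at 1.01 (0.72 to 1.30). The cluster left out had the higher level of each of these genes, so that the ratios had to rise without it. Leaving out clusters with a median under 400 UMIs was chosen after their values were seen. The untreated library also had a shallow EC-like cluster, of 1257 nuclei with a median of 345 UMIs, with 301 CPM of Cidea and 99.8 CPM of Esrrg against 165 and 28.8 CPM in the other EC-like nuclei. Without it the untreated ratios were 4.42 (3.99 to 4.89) for Ppargc1a, 4.65 (4.43 to 4.89) for Ppargc1b and 4.69 (4.40 to 4.997) for Esrrg, with Ucp1 at 1.87 (1.70 to 2.04) and Prdm16 at 1.31 (1.17 to 1.45). The largest sham EC-like cluster, of 4148 nuclei, was also led by Ablim3. It was not shallower than the next largest, with medians of 526 and 525.5 UMIs. It held 32.3 CPM of Esrrg and 84.2 CPM of Ppargc1b, against 8.20 and 34.6 CPM in the other sham EC-like nuclei. Ucp1 and Prdm16 were lower there, at 60.2 and 71.8 CPM against 118 and 116 CPM. Between all BA-like and EC-like nuclei of the denervated library matched on UMIs, Ucp1 stood at only 0.31 (0.02 to 0.59) and Ppargc1a at 1.55 (1.25 to 1.85). Subtraction of ambient RNA took 84.1% of the UMIs off the denervated EC-like class and turned the ratios of Ppargc1a, Ppargc1b, Prdm16, Esrrg and Zfp516 there to the other sign.

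**Figure D1:**
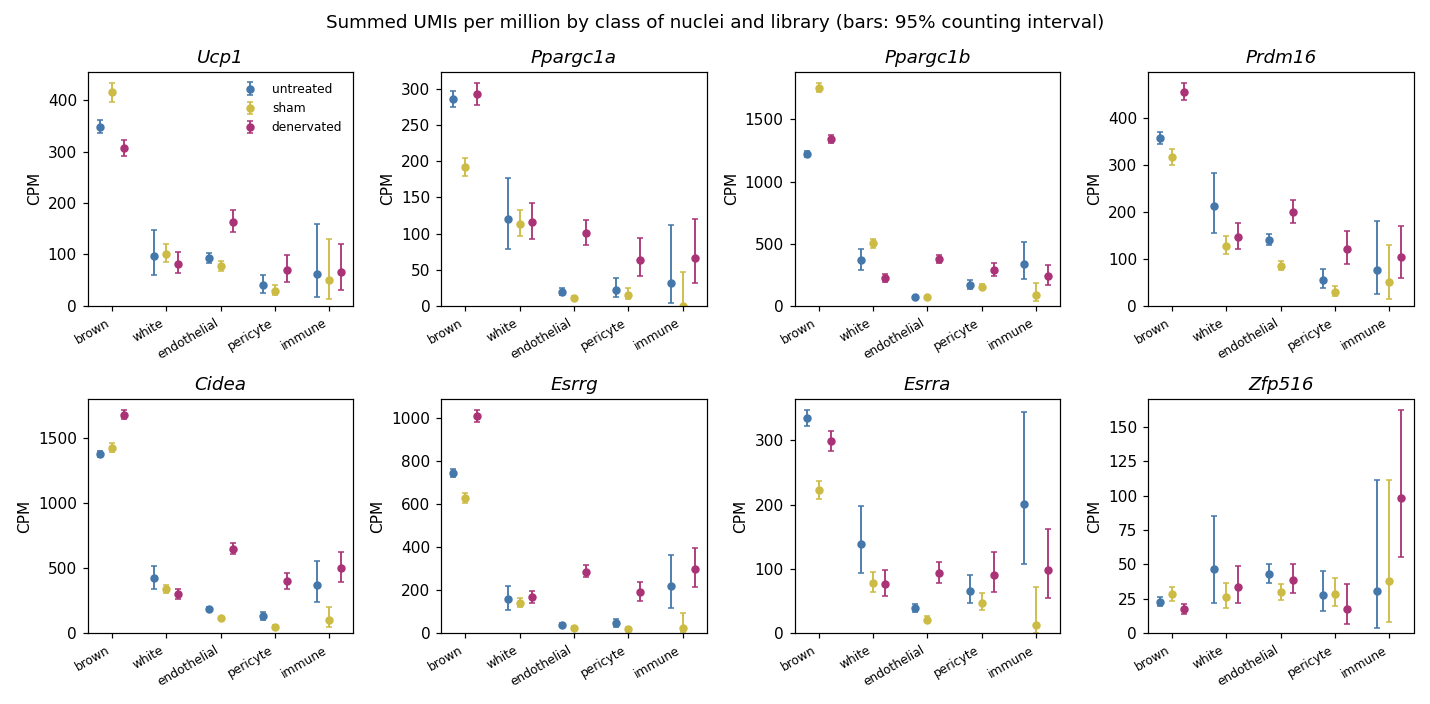
Level of each gene in CPM (vertical axis, linear, from 0) in 5 classes of nuclei, with 1 point per library (blue, untreated; yellow, sham; magenta, denervated) and bars for the 95% counting interval. The classes are brown and white adipocyte-like, endothelial-like, pericyte-like and immune-like nuclei. Among these 5 classes, all genes but Zfp516 stand highest in brown adipocyte-like nuclei in every library, with 308 to 415 CPM for Ucp1.

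The levels in EC-like nuclei were set beside those of the 8 adipocyte markers, not all of which need be absent from ECs. Across the 8 adipocyte markers, the EC-like level was 7.95% to 39.2% of the BA-like level in the untreated library, with a median of 13.5%, and 5.24% to 22.9% in the sham library, with a median of 9.06%. Esrrg, Ppargc1b and Ppargc1a stood at 5.20%, 5.84% and 6.66% in the untreated library, below its median, and Cidea at 13.4%. In the denervated library the marker median was 30.4%. Esrrg and Ppargc1b stood below it there, at 28.4% and 27.7%, and Ppargc1a and Cidea above it, at 34.3% and 38.6%. Ucp1 stood higher, at 26.7% (untreated), 18.6% (sham) and 53.3% (denervated). Prdm16 stood at 39.4%, 26.7% and 43.8%, at or above the highest marker in the untreated and sham libraries but below it in the denervated one, where that marker reached 47.8%. Subtraction of ambient RNA took 42.9% of the UMIs off the untreated and 45.6% off the sham EC-like class. It counts the adipocyte markers in EC-like nuclei as free RNA, so that it cannot measure the part of free RNA in these levels, which was not tested.

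The EC-like clusters were built without the members, and Prdm16 was not the only member unevenly spread over them. Among untreated EC-like clusters of at least 50 nuclei it had 118 to 324 CPM, and Ppargc1b had 39.3 to 213 CPM. In the untreated and sham libraries Prdm16 was highest in other clusters than Ppargc1b. In the untreated library a cluster of 357 nuclei led by Alox12, with Fbln5 and Sema3g among its leading genes, had 324 CPM of Prdm16 from 90 UMIs, against 126 CPM in all other EC-like nuclei, for a log2 ratio of 1.36 (1.01 to 1.69). In the sham library the cluster led by Fbln5, with Alox12 and Sema3g also among its leading genes, had 421 CPM from 47 UMIs against 74.3 CPM, for a log2 ratio of 2.50 (2.02 to 2.95). The counting intervals of Prdm16 in these 2 clusters were 260 to 398 and 310 to 560 CPM. They included its level in BA-like nuclei of the same library, 357 CPM (untreated) and 317 CPM (sham). Ucp1, by contrast, had 82.7 and 80.7 CPM in these 2 clusters and 93.6 and 77.1 CPM in the remaining EC-like nuclei. Cidea had 108 CPM in the first and 44.8 CPM in the second cluster, the lowest level among the EC-like clusters of at least 50 nuclei in each library. No such cluster was found in the denervated library, where Prdm16 had 285 CPM in the shallow cluster and 116 CPM in the other. The part of free RNA in the Prdm16 of these clusters was not tested. Sema3g and Fbln5 are known from arterial vessels, a feature of the genes and not a name given to the clusters.

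**Figure D2:**
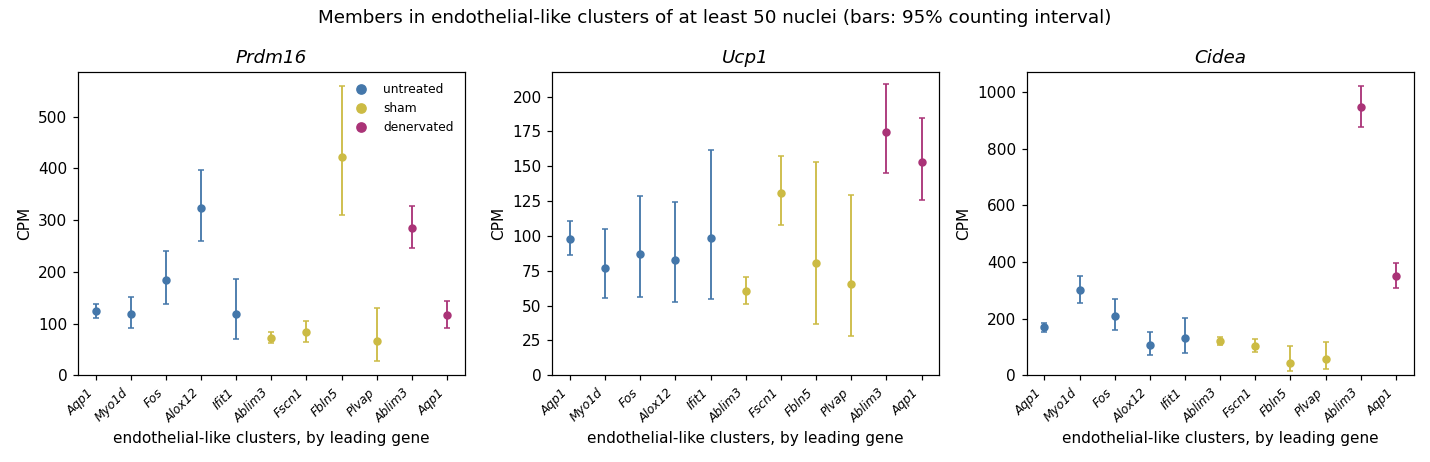
Level of Prdm16, Ucp1 and Cidea in CPM (vertical axes, from 0) in each endothelial-like cluster of at least 50 nuclei, labelled by its leading gene and coloured by library, with 95% counting intervals. Prdm16 is highest in the clusters led by Alox12 (324 CPM) and Fbln5 (421 CPM), where Cidea is low, whereas both genes are high in the denervated cluster led by Ablim3.

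In the smaller classes the levels rested on fewer UMIs. In pericyte-like nuclei Ucp1 had 39.9, 29.3 and 68.9 CPM in the untreated, sham and denervated libraries. Ppargc1b, which also serves oxidative metabolism outside fat, had 170 CPM (138 to 207), 153 CPM (132 to 177) and 290 CPM (240 to 348) there, against 71.2, 69.7 and 373 CPM in EC-like nuclei. In the sham library no EC-like cluster of at least 50 nuclei was above 84.2 CPM. The direction depended on the EC-like cluster in the untreated and denervated libraries. The shallow cluster had 213 CPM (175 to 256) in the untreated library, against 48.4 CPM in the other EC-like nuclei, and 678 CPM in the denervated one, against 72.3 CPM in the Aqp1-led cluster. The pericyte-like level of Ppargc1b was 13.9%, 8.72% and 21.6% of the BA-like level, within the range of the 8 adipocyte markers in each library (5.96% to 21.2%, 2.93% to 10.6% and 15.6% to 30.9%). Above that range stood Esrra in the sham library, at 21.3%, and Zfp516 in every library. The 356 smooth muscle-like nuclei of the sham library had 293 CPM of Ppargc1b from 74 UMIs and 178 CPM of Prdm16 from 45 UMIs. Prdm16 had 333, 323 and 291 CPM in the 28, 134 and 48 Schwann-like nuclei, from 8, 28 and 9 UMIs, with wide intervals that overlap its level in BA-like nuclei of each library. Cidea had 125, 115 and 420 CPM in the same nuclei, from 3, 10 and 13 UMIs. The source of these UMIs was not tested. Among immune-like nuclei, of which there were 73, 85 and 260, Ucp1 had 4, 4 and 10 UMIs, too few to place it, and Cidea had 371, 102 and 499 CPM.

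Zfp516, whose protein binds the Ucp1 promoter, was barely detected. It had 22.6 CPM (19.5 to 26.1) in untreated, 28.2 CPM (23.6 to 33.5) in sham and 17.3 CPM (13.8 to 21.4) in denervated BA-like nuclei, from 186, 130 and 86 UMIs. EC-like nuclei had 43.0, 29.5 and 38.5 CPM, more than BA-like nuclei in the untreated and denervated libraries, with log2 ratios of BA-like over EC-like nuclei of -0.93 (-1.24 to -0.62) and -1.15 (-1.66 to -0.63), but not distinguishable in the sham library, at -0.07 (-0.44 to 0.31). At least 1 UMI of Zfp516 was found in 3.66%, 3.42% and 1.66% of BA-like nuclei and in 2.80%, 1.74% and 1.75% of the shallower EC-like nuclei.

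Shares of nuclei with a UMI depended on depth. Ucp1 was detected in 36.4% (35.0 to 37.9) of untreated, 33.6% (31.9 to 35.2) of sham and 20.8% (19.6 to 21.9) of denervated BA-like nuclei, and in 5.82%, 4.08% and 6.71% of EC-like nuclei. After each nucleus was thinned to 800 UMIs, which left 4148, 2784 and 2923 BA-like nuclei and dropped 327, 460 and 2014 shallower ones, the shares were 21.2% (19.9 to 22.4), 23.4% (21.86 to 25.04) and 21.7% (20.2 to 23.2). The lower share of the denervated library was thus not seen among nuclei that reached 800 UMIs. Thinning left out many nuclei with a low level of Ucp1, as the 2 shallower quartiles of denervated BA-like nuclei, with medians of 525 and 764 UMIs, had 148 and 216 CPM of Ucp1 and the 2 deeper ones 332 and 382 CPM. At the same depth Ppargc1a was found in 18.9%, 12.8% and 18.3%, Prdm16 in 23.2%, 21.3% and 28.5%, and Cidea in 60.3%, 62.4% and 66.3% of BA-like nuclei. EC-like nuclei with at least 800 UMIs held Ucp1 in 7.0%, 6.04% and 14.3%.

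BA-like nuclei of the denervated library were next set against those of the untreated and the sham library. No member differed by 2-fold between the denervated and the untreated library, where 1.61% of all genes did so. None did between the denervated and the sham library, where 15.3% of all genes did, nor between the sham and the untreated library, where 14.6% did. These shares cover genes with at least 50 CPM in either library, a level that Zfp516 did not reach. The median over the members was 0.09 on the log2 scale for denervated over untreated, with single genes from -0.39 to 0.44, while the 5th and 95th percentile of all genes stood at -0.50 and 0.60. These comparisons share their libraries. The sham library also stood apart in mitochondrial UMIs, which were 6.37% of those of BA-like nuclei against 3.12% in the untreated and 1.85% in the denervated library, and in the immediate early list, which summed to 1264 CPM against 572 and 668 CPM. Their part in the differences between libraries was not tested.

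Ucp1 was slightly lower after denervation. Its level of 308 CPM stood against 348 CPM in the untreated library, for a log2 ratio of -0.18 (-0.27 to -0.09), and against 415 CPM in the sham library, for a log2 ratio of -0.43 (-0.53 to -0.34). The difference between the untreated and the sham library, with sham higher by 0.25 (0.17 to 0.34), was of the same order. Without the sub-cluster led by stress genes described below, denervated over untreated was -0.08 (-0.17 to 0.01). Between nuclei matched on UMIs it turned to 0.12 (-0.01 to 0.24), and with at least 500 detected genes per nucleus to 0.02 (-0.08 to 0.11).

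The coactivator genes parted in the sham library and not in the denervated one. Ppargc1a had 286 CPM (274 to 298) in untreated, 192 CPM (179 to 205) in sham and 293 CPM (278 to 308) in denervated BA-like nuclei, so that the untreated and denervated intervals overlapped and sham stood apart below them. Denervated over untreated was 0.03 (-0.06 to 0.13) and denervated over sham 0.61 (0.49 to 0.73). Ppargc1b had 1218, 1757 and 1346 CPM in the same order, with sham above both. Its log2 ratio of denervated over sham was -0.38 (-0.43 to -0.34) and of denervated over untreated 0.14 (0.10 to 0.19).

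The receptor genes Esrra and Esrrg were both lowest in the sham library and differed in direction between the denervated and the untreated one. Esrra had 334 CPM (322 to 347) in untreated, 223 CPM (209 to 237) in sham and 298 CPM (283 to 314) in denervated nuclei, 3 levels without overlap, with denervated over untreated at -0.16 (-0.25 to -0.07) and denervated over sham at 0.42 (0.31 to 0.54). Matched on UMIs, the former was -0.06 (-0.19 to 0.07) and the latter 0.44 (0.30 to 0.58). Esrrg had 742 CPM (723 to 761), 627 CPM (604 to 650) and 1006 CPM (978 to 1034), highest after denervation. The log2 ratio of Esrrg was 0.44 (0.39 to 0.49) against untreated and 0.68 (0.62 to 0.75) against sham. Matching on UMIs reduced the former to 0.24 (0.16 to 0.32) and left the latter at 0.61 (0.53 to 0.69).

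Prdm16 and Cidea were also highest after denervation. Prdm16 had 357 CPM (344 to 370), 317 CPM (301 to 334) and 457 CPM (438 to 476) in untreated, sham and denervated BA-like nuclei, for log2 ratios of the denervated library of 0.36 (0.28 to 0.43) and 0.53 (0.43 to 0.62). Cidea had 1374 CPM (1349 to 1400), 1425 CPM (1390 to 1459) and 1676 CPM (1640 to 1712), for log2 ratios of 0.29 (0.25 to 0.33) and 0.23 (0.19 to 0.28). Both ratios kept their sign between nuclei matched on UMIs, with 0.27 and 0.45 for Prdm16 and 0.15 and 0.18 for Cidea. Zfp516 was lowest in the denervated library, with log2 ratios of -0.39 (-0.77 to -0.01) and -0.70 (-1.11 to -0.30), from few UMIs.

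**Figure D3:**
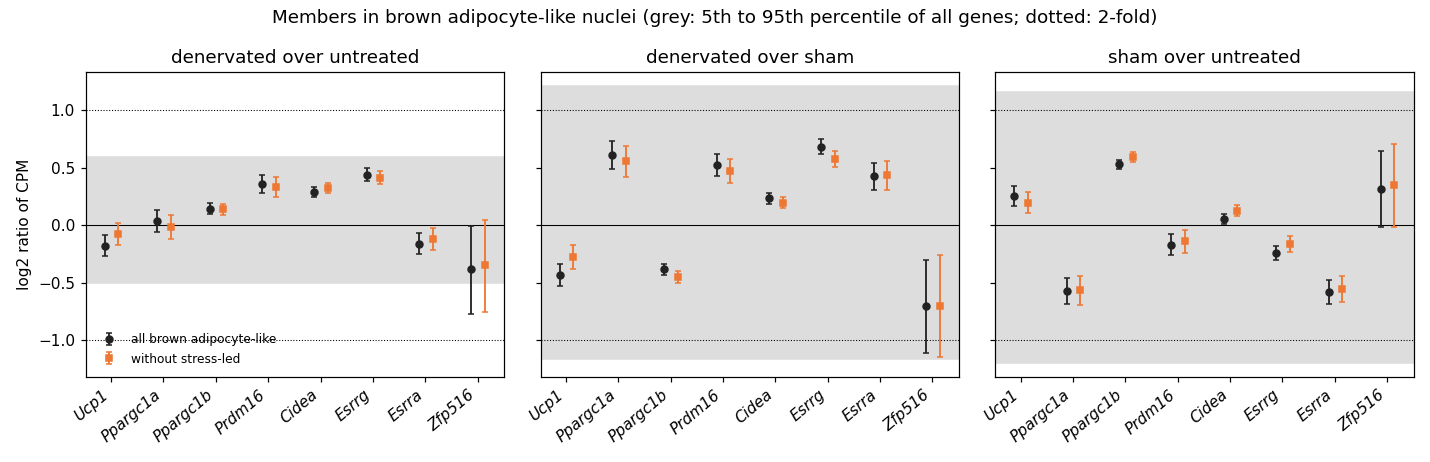
Log2 ratio of CPM (vertical axis) of each gene in brown adipocyte-like nuclei for the 3 pairs of libraries, over all such nuclei (black circles) and without the stress-led sub-cluster (orange squares), with 95% counting intervals; dotted lines mark 2-fold and the grey band the 5th to 95th percentile of all genes. No gene passes 2-fold, and Esrrg, Prdm16 and Cidea are above 0 in both comparisons of the denervated library.

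Adipocyte-like nuclei were clustered again within each library, without the members. Each library gave a large BA-like sub-cluster and a smaller one with at least 3 stress genes among its 10 leading genes, such as Hspa1a and Atf3 in untreated, Jun and Hspb1 in sham and Hspa1a and Dnajb1 in denervated nuclei. This stress-led group held 433, 704 and 911 nuclei, with a median of 1127, 1148.5 and 637 UMIs against 1898, 1468 and 979 in the remaining BA-like nuclei. Its heat shock list summed to 18094, 16178 and 13668 CPM against 1829, 1347 and 1883 CPM. In the denervated library 37 BA-like nuclei led by Rsad2, an interferon-response gene, formed a further sub-cluster. It had 186 CPM (74.8 to 383) of Ucp1 from only 7 UMIs.

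Ucp1 was lower in stress-led nuclei of the untreated and above all of the denervated library. It had 245 CPM (205 to 292) in stress-led against 355 CPM (342 to 369) in the remaining untreated nuclei, 451 CPM (408 to 497) against 407 CPM (387 to 428) in sham nuclei, and 106 CPM (81.7 to 134) against 337 CPM (320 to 354) in denervated nuclei. The log2 ratios were -0.53 (-0.80 to -0.28), 0.15 (-0.02 to 0.31) and -1.67 (-2.05 to -1.32). Between stress-led and remaining nuclei matched on UMIs the denervated ratio was -1.30 (-1.73 to -0.88) and the untreated one -0.34, with an interval from -0.68 to 0.00 that reached 0. With at least 500 detected genes per nucleus no stress-led sub-cluster was found in the denervated library. Among the stress-led nuclei alone, denervated over untreated was -1.22 (-1.67 to -0.78) and denervated over sham -2.09 (-2.49 to -1.71).

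No other member was lower by 2-fold in stress-led nuclei of any library. Ppargc1a stood the other way, with 380 against 280 CPM in untreated and 405 against 277 CPM in denervated nuclei, for log2 ratios of 0.44 (0.22 to 0.65) and 0.55 (0.35 to 0.75), but 206 against 188 CPM and 0.13 (-0.12 to 0.36) in sham nuclei. Matched on UMIs, the untreated ratio was 0.52 (0.20 to 0.84) and the denervated one 0.27, with a lower bound just below 0 and an upper bound of 0.54. Esrra was lower in stress-led nuclei of all 3 libraries, at -0.29 (-0.54 to -0.05), -0.28 (-0.53 to -0.04) and -0.55 (-0.81 to -0.29). Ppargc1b was lower in untreated and sham nuclei, at -0.16 (-0.29 to -0.04) and -0.42 (-0.51 to -0.33), and so was Prdm16, at -0.24 (-0.48 to -0.01) and -0.25 (-0.45 to -0.05). In the denervated library both intervals included 0. Esrrg was higher in untreated and denervated nuclei, at 0.26 (0.12 to 0.40) and 0.33 (0.21 to 0.44), and lower in sham nuclei, at -0.35 (-0.50 to -0.21). Between nuclei matched on UMIs, untreated Esrra stood at -0.02 (-0.36 to 0.32), untreated Prdm16 at -0.06 (-0.38 to 0.26) and denervated Esrrg at 0.05 (-0.10 to 0.19). All of these intervals included 0. Those of Esrra and Prdm16 also included the unmatched ratios, so that matching leaves both differences undecided. Past 2-fold was 1 member in the denervated library, Ucp1, where 6.67% of all genes were, and none in the untreated and sham libraries, where 5.14% and 3.28% were.

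**Figure D4:**
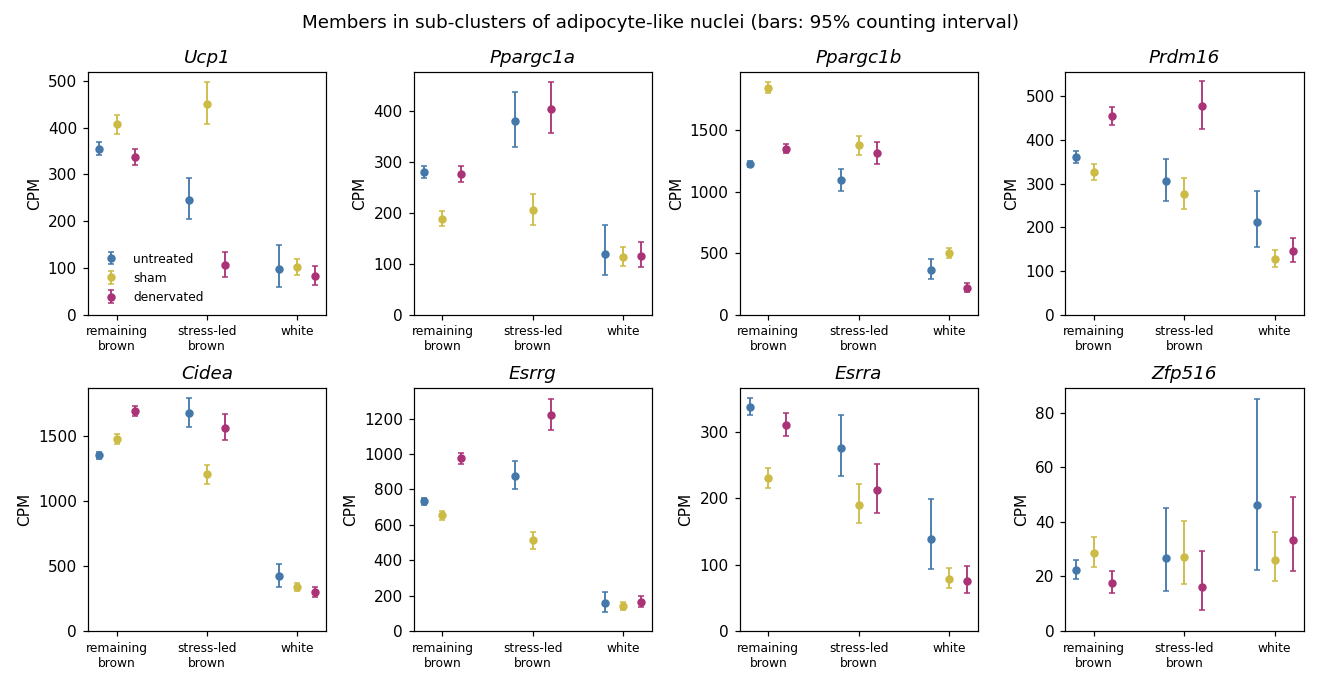
Level of each gene in CPM (vertical axes, from 0) in the remaining brown, the stress-led brown and the white adipocyte-like nuclei, with 1 point per library and 95% counting intervals. Ucp1 falls to 106 CPM in stress-led denervated nuclei while Ppargc1a stands at 405 CPM there, and all genes but Zfp516 are lowest in white adipocyte-like nuclei in each library, although the intervals of Ucp1 in stress-led (81.7 to 134) and white (63.4 to 105) denervated nuclei overlap.

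Depth and Ucp1 moved together within BA-like nuclei, in directions that differed between libraries. Parted into quartiles of UMIs per nucleus, denervated nuclei rose from 148 CPM of Ucp1 in the shallowest quartile, with a median of 525 UMIs, to 382 CPM in the deepest, with a median of 1603 UMIs, for a log2 ratio of 1.37 (1.05 to 1.69). Untreated nuclei went from 286 to 376 CPM, at 0.40 (0.21 to 0.58). Sham nuclei went the other way, from 500 to 341 CPM, at -0.55 (-0.75 to -0.34). Stress-led nuclei were 39.0% of the shallowest and 2.59% of the deepest denervated quartile, and without them the denervated ratio was 0.94 (0.65 to 1.24), the untreated 0.35 (0.17 to 0.54) and the sham -0.54 (-0.76 to -0.31). In the denervated library Ppargc1a and Esrrg fell with depth, at -0.64 (-0.86 to -0.41) and -0.55 (-0.67 to -0.42), and so did Prdm16 and Cidea, at -0.29 (-0.48 to -0.10) and -0.15 (-0.25 to -0.05). Esrra rose there, at 0.29 (0.04 to 0.55), while the intervals of Ppargc1b and Zfp516 included 0.

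**Figure D5:**
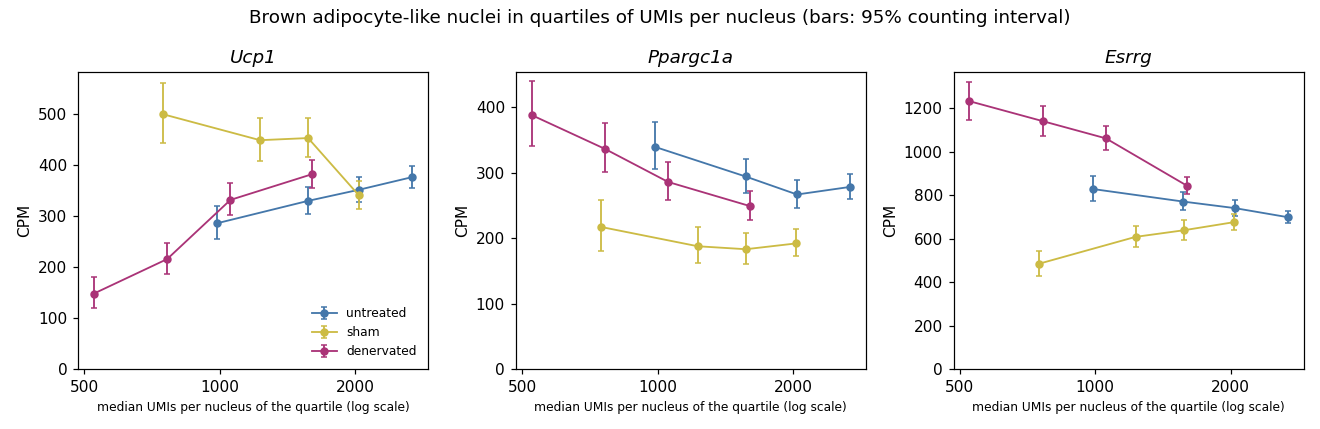
Level of Ucp1, Ppargc1a and Esrrg in CPM (vertical axes, from 0) in quartiles of brown adipocyte-like nuclei by UMIs per nucleus (horizontal axis, median of the quartile on a log scale), with 1 line per library and 95% counting intervals. Ucp1 goes from 148 to 382 CPM with depth in the denervated library and from 500 to 341 CPM in the sham library.

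White adipocyte (WA)-like nuclei numbered 147 in the untreated, 1072 in the sham and 884 in the denervated library, and carried Slc7a10, a gene of white adipocytes, among their leading genes in all 3. Cxcl1, Ptx3 and Irf1, genes of inflammation, also led the denervated ones, and the heat shock list summed to 8712, 22749 and 12486 CPM in them. Ucp1 had 97.2 CPM (60.1 to 149), 102 CPM (85.2 to 120) and 82.3 CPM (63.4 to 105) there, for log2 ratios over BA-like nuclei of -1.84 (-2.54 to -1.23), -2.03 (-2.29 to -1.78) and -1.90 (-2.29 to -1.54). Esrrg was lower too, at -2.24 (-2.77 to -1.75), -2.16 (-2.38 to -1.95) and -2.60 (-2.86 to -2.35), and so was Cidea, at -1.71 (-2.02 to -1.41), -2.08 (-2.22 to -1.94) and -2.48 (-2.68 to -2.30). Both intervals lay below that of Ucp1 in the denervated library.

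In WA-like nuclei the intervals of Ppargc1a overlapped between libraries. It had 120 CPM (78.6 to 176), 114 CPM (96.2 to 133) and 116 CPM (93.0 to 142), the first from 26 UMIs, so that denervated over untreated, at -0.06 (-0.70 to 0.63), leaves room for a difference in either direction. It had log2 ratios over BA-like nuclei of -1.25 (-1.87 to -0.69), -0.76 (-1.01 to -0.51) and -1.34 (-1.66 to -1.03). Ppargc1b had 365, 502 and 220 CPM, lowest after denervation, and denervated over sham WA-like nuclei stood at -1.19 (-1.44 to -0.95). Zfp516 was not lower in WA-like nuclei, with 46.3, 26.1 and 33.4 CPM and log2 ratios of 1.03 (-0.05 to 1.94), -0.11 (-0.69 to 0.44) and 0.95 (0.26 to 1.60). Of the 7 members with at least 50 CPM, 6 were at least 2-fold lower in WA-like nuclei of the untreated library against 14.8% of all genes, 6 in the sham library against 15.0% and 7 in the denervated library against 19.3%. These counts are likewise a description. The median over all genes was -0.13, -0.26 and -0.22, a shift to be set beside these ratios. Prdm16 in the untreated library, at -0.75 (-1.20 to -0.33), and Ppargc1a in the sham library were the members short of 2-fold. Clustering the 3 libraries together left 30, 1781 and 68 WA-like nuclei and brought the median over the members to -1.07, -0.87 and -1.20, from -1.49, -1.66 and -1.94.

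The other members were compared between nuclei with and without a Ucp1 UMI. Among remaining BA-like nuclei thinned to 800 UMIs, 826 untreated nuclei had a Ucp1 UMI and 2962 had none. Ppargc1a had 253 CPM in the former and 279 CPM in the latter, a log2 ratio of -0.14 (-0.39 to 0.11), and Prdm16 361 and 363 CPM, a log2 ratio of -0.01 (-0.22 to 0.20). The intervals of Cidea, Prdm16 and Esrra included 0 in all 3 libraries. Esrrg was lower in nuclei with a Ucp1 UMI in the sham and denervated libraries, at -0.27 (-0.47 to -0.06) and -0.22 (-0.38 to -0.07), and stood at -0.05 (-0.20 to 0.10) in the untreated one. In the sham library Ppargc1a and Ppargc1b were higher in nuclei with a Ucp1 UMI, at 0.41 (0.05 to 0.76) and 0.11 (0.00 to 0.23). Over all BA-like nuclei, thinned in a separate draw, the intervals of Esrrg, Ppargc1a and Ppargc1b included 0 in each library, with Ppargc1a at 0.25 (-0.07 to 0.57) and Esrrg at -0.12 (-0.31 to 0.06) in the sham library. There Prdm16 was lower in untreated nuclei with a Ucp1 UMI, at -0.23 (-0.45 to -0.02), and Cidea higher in sham ones, at 0.14 (0.02 to 0.26).

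Of the genes that work with the members in BAs, lists of 17 further regulators, 11 co-repressors and inhibitors and 20 thermogenic effectors and targets were compared in the same way. All 48 had a column, and 11, 9 and 14 of them reached 50 CPM in BA-like nuclei of the denervated or the untreated library. In denervated over untreated nuclei none of the 11 regulators and none of the 9 co-repressors passed 2-fold, with medians of -0.08 and 0.17, and 1 of the 14 effectors was lower, with a median of -0.16, beside -0.01 over all genes, of which 1.19% were past 2-fold higher and 0.419% past 2-fold lower. Against the sham library 1 regulator and 1 co-repressor were higher, and 1 effector was higher and 4 were lower, with medians of 0.08, 0.01 and -0.37 beside 0.00 over all genes, of which 7.75% were past 2-fold higher and 7.57% past 2-fold lower.

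Ucp3, an uncoupling protein related to UCP1, was the 1 gene of these lists with at least 50 CPM that was past 2-fold in the same direction against both. Elovl3, an elongase of fatty acids, was also lower, at -1.24 (-1.95 to -0.58) over untreated and -1.52 (-2.26 to -0.83) over sham, but had only 11.4, 13.9 and 4.83 CPM in the untreated, sham and denervated libraries. Ucp3 had 184 CPM (175 to 193) in untreated, 167 CPM (156 to 179) in sham and 83.3 CPM (75.5 to 91.7) in denervated BA-like nuclei, below both others without overlap. Its log2 ratios were -1.14 (-1.30 to -0.98) and -1.01 (-1.18 to -0.83). Adrb3, the gene of the β3-adrenergic receptor, had 580, 1738 and 614 CPM, and Adrb1 had 143, 42.5 and 108 CPM, so that the sham library stood apart from both others in opposite directions. Elovl3, Dio2, Adrb3 and Adrb1 were chosen for mention after their values were seen.

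The genes whose level was most like that of Ucp1 over 9 adipocyte-like sub-clusters of all 3 libraries were Letm1 (Pearson's r of 0.97), Ak3 (0.97) and Sdhb (0.97), out of 4109 genes with a mean of at least 50 CPM over them. Among those most like Ppargc1a were Rgs7 (0.99) and Safb2 (0.97). The sub-clusters of a library share its depth and preparation, and the correlations are given as a description.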

How the data were processed

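Single nuclei were profiled in 3 libraries of interscapular BAT, 1 per condition. The tables deposited by the authors hold raw UMI counts, 1 line per barcode and 1 column per gene. A BD Rhapsody pipeline for nuclei with GRCm38 and GENCODE vM19 is named in the header of the untreated and of the denervated table. The sham table has no header. The submitters' processing notes name Seurat 4.0.6.

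A minimum of 200 detected genes and a maximum of 50% mitochondrial UMIs were required. A nucleus was removed as a doublet where 2 marker lists of different cell types (endothelial, adipocyte, pericyte with fibroblast) each had 3 UMIs or more and the smaller sum reached 25% of the larger. These were 894, 1689 and 668 nuclei in the untreated, sham and denervated libraries, which left 10898, 12338 and 9794. Each library was clustered on its own (2000 variable genes without the 8 genes and the 3 lists, 30 principal components, 20 neighbours, Louvain resolution 0.5). Clusters were named after the list with the highest mean log2 fold of its markers over the lowest cluster, with at least 3 markers of at least 3 UMIs and 2-fold. Adipocyte-like nuclei were then clustered again. A sub-cluster was WA-like where at least 3 white markers were 2-fold above the other adipocyte-like nuclei and 1 was among its 10 leading genes, otherwise BA-like by its brown markers. The naming rules were settled with the clusters in view, so that rebuilt names can differ from those of the study. Cpt1b, Hoxc8, Hoxc9 and Hoxc10, which are on the marker lists, were not analysed here. A gene among those most like Ppargc1a is not reported here.

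UMIs were summed per class and given as CPM with exact Poisson intervals, shares with Clopper-Pearson intervals, and log2 ratios with exact conditional binomial intervals, at 95%. The interval of a median over the 8 genes is the median of their bounds. A gene was counted past 2-fold among genes with at least 50 CPM in either group; where a gene had fewer than 3 UMIs, 3 were used. The study's test over single nuclei was not used, since nuclei of 1 library are not replicates. No test was made. DIEM and decontX were not used, and the reported values include debris and ambient RNA. Genes of the lists were named where they passed 2-fold in the same direction in the denervated library against both others. The members and lists were chosen with earlier results of these data known. Scripts were tested on simulated data. The software was Python 3.11.15, with igraph for Python (0.11.9) for clustering, scikit-learn (1.9.0) for components and neighbours, scipy (1.17.1) for intervals, and pandas (2.3.3), matplotlib (3.10.9) and numpy (2.4.6). Promoter windows are from RefSeq, with 5 of the 8 genes found there.

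Alternatives tried were at least 500 detected genes, at most 10% mitochondrial UMIs, no removal of doublets, resolution 1, the 8 genes and lists among the variable genes, all libraries clustered together, CPM without mitochondrial UMIs, scaling by the median of ratios, subtraction of ambient RNA, the mean of log2(counts per 10000 + 1), nuclei matched on UMIs, thinning, another filter, 1.5-fold, and all adipocyte-like nuclei against EC-like nuclei. Leaving out the stress-led sub-clusters or EC-like clusters with a median under 400 UMIs was chosen after seeing the data.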

Additional observations from a re-analysis of the deposited data

Results flagged for a closer look

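Differences within a library whose sign differed between at least 2 libraries, with counting intervals on either side of 0, are listed here; the difference between libraries was not tested, since each library is 1 sample. In stress-led over remaining BA-like nuclei, the log2 ratio of Cidea was 0.31 in the untreated, -0.29 in the sham and -0.11 in the denervated library. That of Esrrg was 0.26, -0.35 and 0.33. In the deepest over the shallowest quartile of BA-like nuclei, Ucp1 stood at 0.40 in the untreated, -0.55 in the sham and 1.37 in the denervated library. Ppargc1b stood at -0.18, 0.19 and -0.041, and Esrrg at -0.25, 0.48 and -0.55. In each of these 5 sets the sham library had the sign opposite to the untreated one. The sets were listed for a difference in sign and share nuclei, so that this is a description only. Stress-led nuclei were 26.1%, 35.5% and 39.0% of the shallowest quartile and 1.16%, 15.4% and 2.59% of the deepest in the untreated, sham and denervated libraries. Their part in these values was not tested for Ppargc1b and Esrrg.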

How the results depend on the processing

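Of 253 values that summarise a comparison under an alternative, 199 stayed within the interval of the reported value, or within 1.5 times of a count. No paired analysis was possible because each condition has 1 library. For BA-like over EC-like nuclei, the median over the members moved as follows. In the untreated library it was 3.38 with at most 10% mitochondrial UMIs, 2.26 without removal of doublets, 2.71 with the median of ratios, 5.47 after subtraction of ambient RNA, 1.05 as the mean of log2(counts per 10000 + 1) and 2.75 with nuclei matched on UMIs. In the sham library it was 2.72 without removal of doublets, 5.45 after subtraction, 0.92 as a mean of logs, 3.05 matched and 3.30 with WA-like nuclei included. In the denervated library it was 0.95 with at least 500 detected genes, 1.26 without removal of doublets, 2.78 at resolution 1, 0.78 as a mean of logs, 1.16 matched and 2.66 without the EC-like cluster under 400 UMIs. Subtraction reversed it to -0.020, with -0.15 for Ppargc1a, -0.082 for Ppargc1b, -0.42 for Prdm16, -0.059 for Esrrg and 0.27 for Zfp516, after taking off 84.1% of the UMIs of that EC-like class; the cause was not tested further. The mean of logs, another scale, gave -0.18 for denervated over untreated, 0.029 for denervated over sham, -0.19 for sham over untreated, -0.82, -0.78 and -0.73 for WA-like over BA-like nuclei and -0.31 for stress-led denervated nuclei. Subtraction gave 0.24 for denervated over sham and 0.011 for sham over untreated. WA-like over BA-like nuclei came to -0.87 in sham and -1.20 in denervated nuclei with all libraries clustered together, and to -1.41 in sham nuclei with the median of ratios.

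Genes past 2-fold rose from 73, 739 and 708 to 2973, 4898 and 3553 for denervated over untreated, denervated over sham and sham over untreated without the filter on low values, and to 383, 1824 and 1699 past 1.5-fold. For BA-like over EC-like nuclei the unfiltered counts were 11901, 7331 and 10652 in the untreated, sham and denervated libraries, and the denervated count was 3133 past 1.5-fold and 3896 after subtraction. The median share of BA-like nuclei with a UMI, 40.9%, 32.4% and 28.0% in the untreated, sham and denervated libraries, was 22.7%, 22.3% and 25.1% after thinning to 800 UMIs, 15.2%, 14.9% and 16.4% after thinning to 500, 42.5%, 34.3% and 33.2% with at least 500 detected genes, and 42.5%, 34.2% and 30.1% without stress-led nuclei. With all libraries clustered together it was 34.3% in the sham library. No stress-led sub-cluster of the denervated library was found with at least 500 detected genes, nor of the sham library with all libraries clustered together, and no WA-like class of the untreated library at resolution 1. The values of Zfp516 are limited by few UMIs, and those of immune-like and Schwann-like nuclei by few nuclei.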

Other observations

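Barcodes with fewer than 200 detected genes numbered 1871 in the untreated, 988 in the sham and 5358 in the denervated library. They were in no class of nuclei and served only as the profile for the subtraction of ambient RNA. Cidea had 1019 CPM (932 to 1112) in those of the untreated library, 251 CPM (205 to 306) in the sham and 477 CPM (432 to 525) in the denervated library. Ucp1 had 103 CPM (76.5 to 135), 90.5 CPM (63.4 to 125) and 122 CPM (99.5 to 147), with overlapping intervals. Ppargc1a had 50.3 CPM (32.6 to 74.3) in the untreated and 47.0 CPM (33.7 to 63.8) in the denervated library and 3 UMIs in the sham library.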
